A study of Mus musculus with 8 samples.

Results

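Mitophagy is the removal of damaged or surplus mitochondria by autophagy, and 7 genes of its receptor and PINK1 arms are described here in primary mouse vascular smooth muscle cells with Sox6 knockdown. The 7 genes were taken by name, not by their values: Bnip3, Bnip3l, Fundc1, Bcl2l13, Fkbp8, Phb2 and Pink1. Each was found as 1 row among 30660 gene identifiers, and all 7 were among the 16150 genes tested. The cells are labelled as primary vascular smooth muscle cells, the contractile cells of the vessel wall. They gave 4 libraries from cells labelled Sox6 knockdown and 4 from cells labelled WT, called control below. The titles mark the knockdown libraries sisox6 and the controls nc. Sox6 is a SoxD transcription factor gene, and the title of the series ties it to autophagy and blood pressure. Nothing in the labels ties a library to its own culture or animal. The p-values therefore reflect the library-to-library spread alone, which may be technical.

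A mitochondrion can be marked for autophagy by receptors it carries or by ubiquitin. In the receptor route, proteins held in the outer mitochondrial membrane bind LC3 and GABARAP proteins on the growing autophagosome through a short interaction motif. BNIP3 and BNIP3L (also called NIX), FUNDC1, BCL2L13 and FKBP8 are receptors of this kind, while PHB2 lies in the inner membrane and is exposed when the outer one ruptures. In the PINK1 route, the kinase PINK1 builds up on mitochondria that have lost their membrane potential and phosphorylates ubiquitin, which marks them for autophagy. Mitophagy is controlled largely through the stability, phosphorylation and placing of these proteins, which RNA counts do not show.

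Total counts ran from 37604102 to 49393224 in knockdown libraries and from 41672921 to 48039788 in control libraries. The 7 genes had between 924 and 13081 counts in a library and none was near the floor of 3 counts. Sox6 itself had 2, 4, 0 and 0 counts in the knockdown libraries, against 6, 10, 6 and 4 in controls (exact two-sided permutation test on CPM, p = 0.0286, the smallest that 4 against 4 can give). All of these counts were even, as were most low counts of other genes (72% to 74.2% of counts from 1 to 40 in a library). Whether both reads of a pair were counted is not given in the sources used here, so the number of RNA fragments behind a count, and behind the floor of 3, may be smaller than the count. With so few counts the knockdown was near the detection limit in these data, and without the filter on low counts its edgeR adjusted p was 0.0774.

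The smooth muscle label was checked against 11 marker genes. Acta2 was abundant at 948 ± 102 CPM in knockdown and 1239 ± 136 CPM in control libraries (SD, n = 4 each), while Tagln had 38 counts over all knockdown libraries and 20 over all controls and was not tested. Cald1 (402 CPM in knockdown, 650 CPM in control libraries), Tpm2 (91.6 and 141) and Smtn (41.9 and 54.6) were well counted too. The rest were low in both groups: Myh11 (7.28 and 5.89 CPM), Mylk (6.04 and 8.34), Des (4.51 and 8.35), Cnn1 (1.91 and 2.23), Lmod1 (0.434 and 0.586) and Myocd (0.0668 and 0.414). Of 10 smooth muscle markers tested, 7 fell and 0 rose. Each count of markers is to be read beside all tested genes, of which 25.4% rose and 26.0% fell. Some markers of other cells also differed between the groups, and no marker list was tested against all genes. All 8 heart muscle markers fell, and their summed level was 26.4 to 101 CPM in knockdown libraries, against 238 to 343 CPM in controls. Of 8 endothelial markers, 6 were tested, of which 5 fell and Vwf rose. They summed to 5.18 to 7.16 CPM in knockdown and 9.15 to 11.9 CPM in control libraries. Of 6 erythroid markers in the table, 4 were tested and 3 fell, with sums of 1.09 to 3.18 CPM in knockdown and 6.52 to 8.97 CPM in control libraries. Epb42, not tested, had 0 counts over all knockdown libraries and 2 over all controls. Macrophage markers summed to 61.1 to 65.7 CPM in knockdown and 60.5 to 65.6 CPM in control libraries, most of it from Csf1r and Cd14. Of 4 macrophage markers tested, Cd68 rose (log2 fold change 0.87) and Cd14 fell (-0.19), though Cd14 did not pass with total counts. Fibroblast markers summed to 439 to 477 CPM in knockdown and 485 to 509 CPM in control libraries, with 2 of 7 higher and 3 lower. These sums are scaled to total counts. No marker of these lists had 0 counts in all 8 libraries. The part of these cell differences in the results below was not tested. In bulk RNA, fewer cells of a type and less RNA per cell cannot be told apart.

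Knockdown moved the mitophagy receptors little. Bcl2l13 and Pink1 rose, with fitted folds of 1.12 and 1.14, and the other 5 did not pass the threshold. So 2 of the 7 genes rose and 0 fell, in a data set in which 25.4% of all tested genes rose, 26.0% fell and 51.5% passed in either direction (edgeR quasi-likelihood test, Benjamini-Hochberg adjusted p under 0.05). The difference between the 7 genes and that background was not tested. The median log2 fold change of the 7 genes was 0.10, against 0.02 for all tested genes. The median absolute log2 fold change was 0.10 for the 7 genes, against 0.26 for all tested genes. Pink1 had the largest of the 7 changes, and 39.6% of all tested genes had a change of that size or smaller. In none of the 7 genes did the knockdown values lie wholly outside the control values, whereas groups did not overlap in 46.9% of tested genes.

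**Figure D1:**
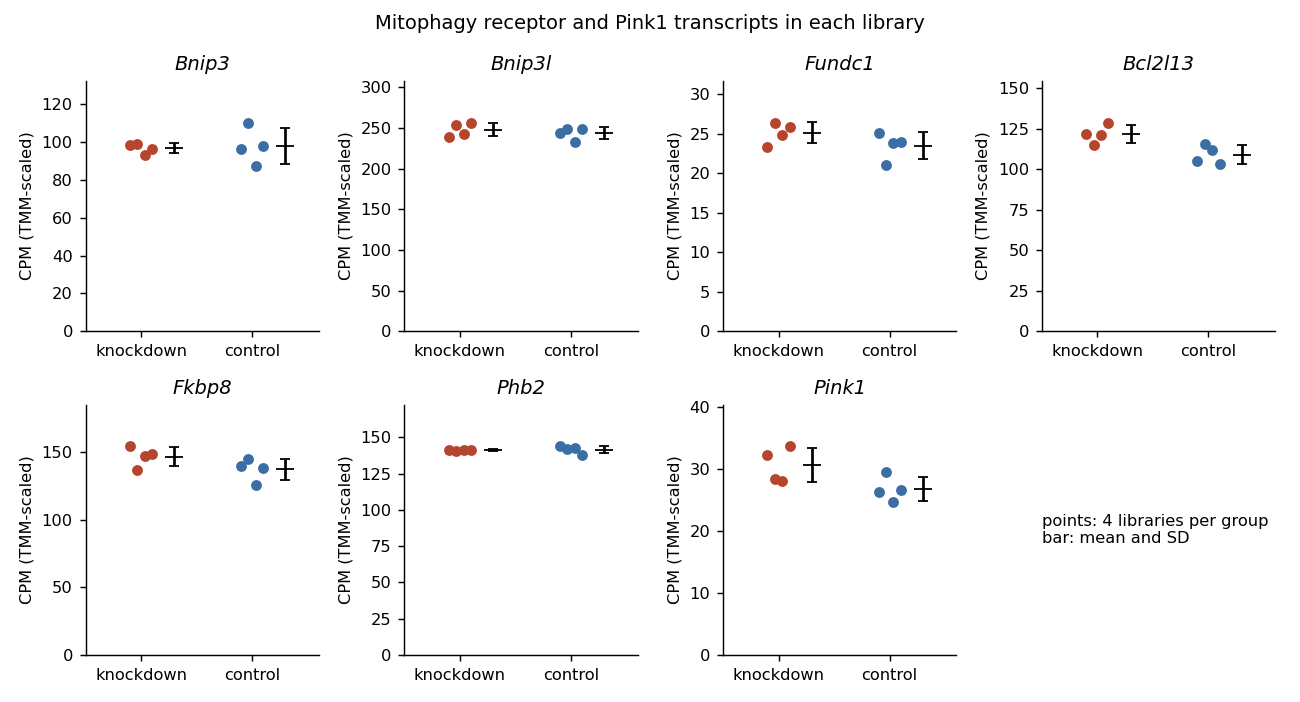
Level of each of the 7 transcripts in CPM scaled by TMM (y axis, from 0), with 4 knockdown libraries at the left and 4 control libraries at the right of each panel, and bars for mean and SD. The groups overlap in every panel, and the upward shift is widest in Pink1 and Bcl2l13.

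These results depend on how libraries were scaled. TMM, the scaling used here, assumes that most genes do not change, and with total counts as the scale the median over all tested genes went up to a log2 fold change of 0.12. With total counts 6 of the 7 genes rose, all but Bnip3, whose log2 fold change was 0.08 (edgeR adjusted p = 0.214). Under that scaling 36.7% of all tested genes rose, 18.9% fell and 55.5% passed in either direction. The median of the 7 genes was then 0.20. Each change below is therefore a change relative to the bulk of transcripts.

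Per length, the 7 transcripts fell into an upper and a lower group. Bnip3l was at the top, with 64.3 ± 2.15 CPM per kb of exon in knockdown and 63.2 ± 1.99 CPM per kb in control libraries (SD, n = 4 each, as for all levels here). Bnip3 followed at 42.8 ± 1.13 CPM per kb in knockdown and 43.3 ± 4.15 CPM per kb in control libraries. Phb2 was at 38.0 ± 0.124 and Fkbp8 at 32.4 ± 1.59 CPM per kb in knockdown libraries, against 38.1 ± 0.676 and 30.3 ± 1.76 CPM per kb in controls. The lower group held Bcl2l13, Pink1 and Fundc1. Bcl2l13 was at 13.4 ± 0.629 CPM per kb in knockdown and 12.0 ± 0.641 CPM per kb in control libraries. Pink1 was at 11.5 ± 1.04 CPM per kb in knockdown and 10.03 ± 0.734 CPM per kb in control libraries. Fundc1 was at 10.7 ± 0.565 CPM per kb in knockdown and 9.99 ± 0.72 CPM per kb in control libraries. The order was the same in all 8 libraries down to Pink1, and Bnip3 exceeded Phb2 by as little as 1.01 times in a library. Pink1 and Fundc1 could not be ordered, since Pink1 was the higher in 3 of 8 libraries. Lengths are those of all annotated exons merged, which understates a gene such as Bcl2l13, with 9089 bases, if the cells use a shorter transcript. Without the length correction Bcl2l13 was above Bnip3, at 121.7 against 96.9 CPM in knockdown and 109 against 98.1 CPM in control libraries. The order and the 2 groups therefore depend on the lengths used, which are the same in every library.

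**Figure D2:**
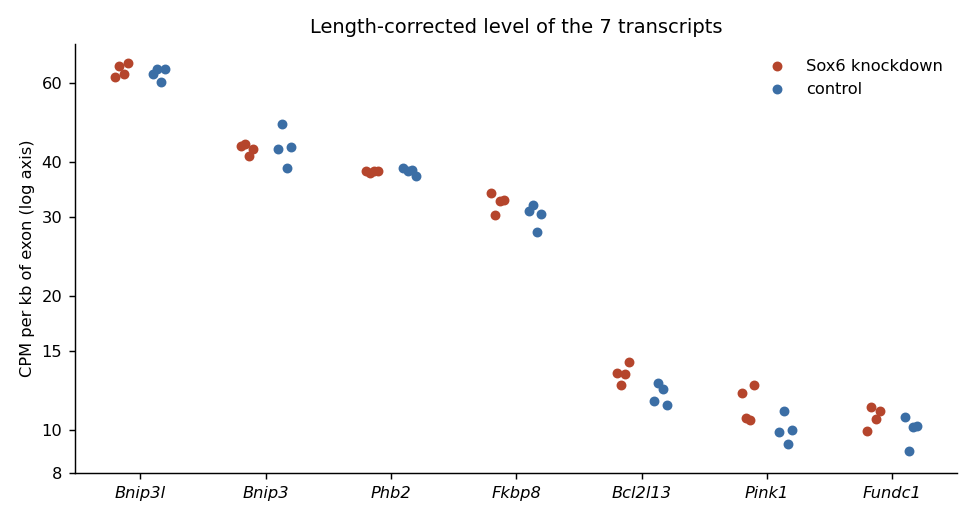
Length-corrected level (y axis, CPM per kb of merged exon, log axis) of the 7 transcripts in order of the control mean, with knockdown points left of control points, 4 libraries each. Bnip3l leads at about 60 to 67 CPM per kb, and a gap separates Fkbp8 from Bcl2l13, Pink1 and Fundc1.

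Bnip3 and Bnip3l encode paired receptors of the BH3-like group, known for clearing mitochondria under low oxygen and, in the case of BNIP3L, from maturing red blood cells. Bnip3 (ENSMUSG00000078566, mm10 chromosome 7, 138890836 to 138909519, minus strand) had 98.5, 99.2, 93.5 and 96.5 CPM in knockdown replicates 1 to 4, against 96.6, 110.3, 87.5 and 98.0 CPM in control replicates 1 to 4. The knockdown libraries lay inside the range of the controls, with a coefficient of variation of 2.63% in knockdown and 9.59% in control libraries. This difference in spread was not tested. The log2 fold change of Bnip3 was -0.02 ± 0.06 (SE, edgeR adjusted p = 0.828), with a 95% interval of the fold from 0.906 to 1.08. The sign turned to plus with upper quartile scaling, with total counts, and without knockdown replicate 3 or control replicate 2. An antisense transcript, Gm45507, lies opposite 504 of the 2265 exon bases of Bnip3 and was not analysed here; reads of such partners cannot be told apart without strand. Bnip3l (ENSMUSG00000022051, chromosome 14, 66985239 to 67008877, minus strand) had 239, 254, 243 and 257 CPM in knockdown libraries, against 243, 249, 233 and 249 CPM in controls. Knockdown replicates 2 and 4 lay above every control and control replicate 3 below every knockdown library, while the other 5 libraries overlapped. Bnip3l had a log2 fold change of 0.03 ± 0.04 (SE, adjusted p = 0.616) and the interval of its fold ran from 0.959 to 1.08. It passed only with total counts (0.13, adjusted p = 0.014).

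Bnip3 is known as a target of hypoxia-inducible factors, which bind short sites around the letters ACGTG. Its promoter is shown because most of the listed genes of that response fell here, though not all, while Bnip3 did not pass the threshold. The RefSeq window of 300 bases (GRCm38.p6, chr7:138909457-138909756, minus strand), printed 5′ to 3′ with the ACGTG cores in capitals, holds 2 of them, on opposite strands.
Bnip3 promoter: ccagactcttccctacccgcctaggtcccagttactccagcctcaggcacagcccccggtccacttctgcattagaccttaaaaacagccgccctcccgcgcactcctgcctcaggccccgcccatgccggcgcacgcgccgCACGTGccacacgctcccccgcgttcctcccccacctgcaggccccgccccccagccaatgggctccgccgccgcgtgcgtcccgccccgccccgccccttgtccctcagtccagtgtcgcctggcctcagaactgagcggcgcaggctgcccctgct
The 2 cores overlap in a palindrome of 6 bases, CACGTG, whose first base lies 108 bases before the annotated start. On either strand ACGTG occurs in 19.6% of 32851 RefSeq promoter windows of this length, and CACGTG in 7.15%. Among the 6 receptor and Pink1 promoters in the table, Bnip3, Phb2 and Fkbp8 held ACGTG, and Bnip3 alone held CACGTG. A SOX core, ACAAT (31.0% of all windows), and a FOXO core, GTAAACA (3.65%), were searched on both strands and occurred in none of the 6. A match describes letters in a window and says nothing of binding.

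Fundc1, Bcl2l13 and Fkbp8 are further outer membrane receptors. FUNDC1 is a receptor of mitophagy under low oxygen whose LC3 binding is set by phosphorylation. Fundc1 (ENSMUSG00000025040, chromosome X, 17556564 to 17572325, minus strand) had 23.4, 26.4, 24.9 and 25.9 CPM in knockdown libraries, against 25.1, 21.1, 23.9 and 23.9 CPM in controls. Knockdown replicate 1 lay below 3 of the 4 controls. Fundc1 had a log2 fold change of 0.10 ± 0.06 (SE, edgeR adjusted p = 0.221), with an interval of the fold from 0.973 to 1.18. With total counts it passed (0.20, adjusted p = 0.0221). FKBP8 binds BCL2 and, as a receptor, LC3. Fkbp8 (ENSMUSG00000019428, chromosome 8, 70527724 to 70535328, plus strand) had 154, 137, 148 and 149 CPM in knockdown libraries, against 140.1, 145, 126 and 138 CPM in controls. Knockdown replicates 1, 3 and 4 were above every control, and knockdown replicate 2 was below 3 of the 4. Its log2 fold change was 0.10 ± 0.05 (SE, adjusted p = 0.118) and the interval of its fold was 0.993 to 1.15. Kxd1, on the other strand, overlaps 4.95% of its exon length and had a log2 fold change of 0.10 (adjusted p = 0.231). Fkbp8 passed without knockdown replicate 2 (0.13, adjusted p = 0.0407), with upper quartile scaling (0.14, adjusted p = 0.028) and with total counts (0.20, adjusted p = 0.00223).

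BCL2L13 is the mammalian receptor that stands in for yeast Atg32, and it also splits mitochondria into fragments. Bcl2l13 (ENSMUSG00000009112, chromosome 6, 120836212 to 120892842, plus strand) had 122, 115, 121 and 129 CPM in knockdown libraries, against 105, 116, 112 and 103 CPM in controls. Knockdown replicates 1, 3 and 4 were above every control, and knockdown replicate 2 was just below control replicate 2. Bcl2l13 rose, with 121.7 ± 5.72 CPM in knockdown and 109 ± 5.82 CPM in control libraries, a log2 fold change of 0.16 ± 0.05 (SE, edgeR adjusted p = 0.0132) and an interval of the fold from 1.04 to 1.2. Dropping control replicate 1 (0.14, adjusted p = 0.0518) or control replicate 4 (0.13, adjusted p = 0.056) lost the call. Bid, on the other strand, overlaps 6.91% of its exon length and was at 105.7 ± 7.34 CPM in knockdown and 109 ± 4.46 CPM in control libraries (adjusted p = 0.432).

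Pink1 (ENSMUSG00000028756, chromosome 4, 138313409 to 138326307, minus strand), the kinase of the PINK1 route, had 32.4, 28.5, 28.1 and 33.7 CPM in knockdown libraries, against 26.4, 29.5, 24.8 and 26.7 CPM in controls. Knockdown replicates 1 and 4 exceeded every control, while replicates 2 and 3 lay below control replicate 2. Pink1 rose, with 30.6 ± 2.78 CPM in knockdown and 26.8 ± 1.96 CPM in control libraries, a log2 fold change of 0.19 ± 0.07 (SE, edgeR adjusted p = 0.0348) and an interval of the fold from 1.03 to 1.27. Pink1 no longer passed without knockdown replicate 1 (0.17, adjusted p = 0.088), knockdown replicate 4 (0.15, adjusted p = 0.112), control replicate 1 (0.18, adjusted p = 0.0834), control replicate 3 (0.15, adjusted p = 0.099) or control replicate 4 (0.19, adjusted p = 0.0684). Annotated microRNA genes lie on 179 of its 2673 exon bases. The promoters of the 2 genes that rose are set beside that of Bnip3 because none of the 4 motifs searched occurs in them, so they carry no capitals (GRCm38.p6, chr4:138326247-138326546, minus strand, and chr6:120835980-120836279, plus strand, 5′ to 3′).
Pink1 promoter: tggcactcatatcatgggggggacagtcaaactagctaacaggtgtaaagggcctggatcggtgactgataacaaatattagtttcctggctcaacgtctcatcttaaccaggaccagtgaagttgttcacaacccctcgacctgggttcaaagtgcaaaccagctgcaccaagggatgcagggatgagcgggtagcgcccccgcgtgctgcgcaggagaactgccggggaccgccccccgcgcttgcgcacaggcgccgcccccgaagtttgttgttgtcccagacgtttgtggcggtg
Bcl2l13 promoter: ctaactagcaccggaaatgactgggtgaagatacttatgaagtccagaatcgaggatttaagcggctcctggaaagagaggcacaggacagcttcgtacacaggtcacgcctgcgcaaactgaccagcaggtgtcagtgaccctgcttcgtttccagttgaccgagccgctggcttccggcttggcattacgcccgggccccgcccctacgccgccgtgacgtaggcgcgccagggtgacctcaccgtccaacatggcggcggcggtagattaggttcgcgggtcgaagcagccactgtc
The window of Fundc1, which did not pass the threshold, held none of the 4 motifs either. The share of G and C was 58.0% in the Pink1 window, 60.3% in the Bcl2l13 window and 71.7% in the Bnip3 window. It was 59.3% in Fundc1, 63.7% in Phb2 and 64.0% in Fkbp8. A difference between the promoters of genes that rose and the others was not tested. By root mean square difference of centred log2 CPM over the 8 libraries, the genes most like Pink1 among 9740 candidates were Zfp574 (0.0327), Pdrg1 (0.0446) and Sh3gl1 (0.0447). Those most like Bcl2l13 were Ube2q2 (0.0366), Pigo (0.0382) and Pald1 (0.0387). Of these genes Pdrg1, Sh3gl1 and Pald1 rose. Zfp574 (edgeR adjusted p = 0.06), Ube2q2 (edgeR adjusted p = 0.104) and Pigo (edgeR adjusted p = 0.0728) did not pass the threshold.

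Phb2, the inner membrane receptor, encodes the partner of PHB1 in the prohibitin ring, a scaffold that is also needed for cristae and for the stability of both subunits. Phb2 (ENSMUSG00000004264, chromosome 6, 124712336 to 124716950, plus strand) had 141, 141, 141 and 142 CPM in knockdown libraries, against 144, 142, 143 and 138 CPM in controls. The knockdown libraries were nearly equal, with a coefficient of variation of 0.328%, against 1.77% in controls. This difference in spread, from 4 libraries per group, was not tested. The log2 fold change of Phb2 was -0.0037 ± 0.035 (SE, edgeR adjusted p = 0.939), and the interval of its fold, 0.946 to 1.05, was the narrowest of the 7. Other annotated transcripts, 1 of them antisense, lie on 296 of its 3718 exon bases. Phb1 (annotated as Phb), which was added as its partner, fell in every knockdown library. It had 114, 96.2, 96.0 and 105 CPM in knockdown libraries, against 141, 139.8, 141 and 141 CPM in controls. Its log2 fold change was -0.46 ± 0.05 (SE, adjusted p = 4.68e-06) and its fold 0.729, with an interval from 0.675 to 0.788. With total counts Phb1 still fell (-0.36), while Phb2 rose (0.10, adjusted p = 0.0326).

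**Figure D3:**
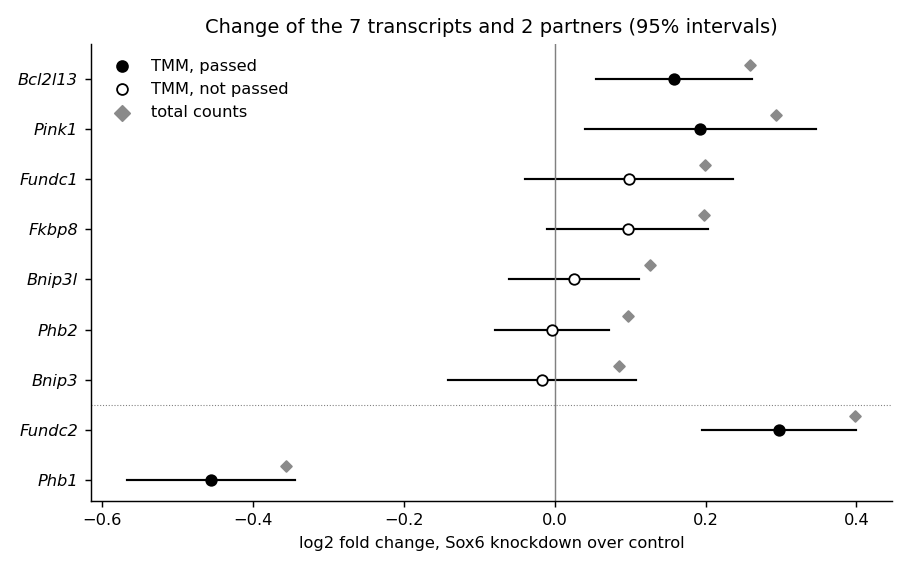
Log2 fold change of knockdown over control (x axis) for the 7 genes and, under the dotted line, the partners Fundc2 and Phb1. Circles and lines are TMM-scaled estimates with 95% intervals, filled where the adjusted p was under 0.05, and diamonds are estimates with total counts. Every diamond lies to the right of its circle, and Phb1 stays below 0 under both.

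Ratios of 2 genes within a library do not depend on scaling, so 3 of them were compared between groups. They were chosen with earlier results of these data known and use the same counts as the changes above. The Phb2 to Phb1 ratio is therefore no separate evidence beside the fall of Phb1. The 2 prohibitin transcripts had nearly equal counts in the controls, and the ratio was higher in every knockdown library. Equal counts are not equal levels per length. In controls Phb2 was at 38.1 and Phb1 at 50.2 CPM per kb of exon, and in knockdown libraries at 38.0 and 36.6 CPM per kb. The ratios below are of counts, without length correction. The ratio of Phb2 to Phb1 was 1.24, 1.46, 1.47 and 1.35 in knockdown libraries, against 1.02, 1.02, 1.01 and 0.976 in controls. The groups did not overlap, and the mean log2 ratio was 0.46 ± 0.12 in knockdown and 0.01 ± 0.03 in control libraries (SD, n = 4 each; exact two-sided permutation test, p = 0.0286, the smallest possible, and 0.0858 after Benjamini-Hochberg adjustment over the 3 ratios). After that adjustment the ratio did not pass 0.05, which this design cannot reach for a lone ratio among 3. The ratio of Bnip3 to Bnip3l ran from 0.376 to 0.412 in knockdown and from 0.375 to 0.442 in control libraries, with a mean log2 difference of -0.04 (exact permutation p = 0.571, adjusted 0.571). The ratio of Fundc1 to its paralog Fundc2 ran from 0.541 to 0.609 in knockdown and from 0.569 to 0.736 in control libraries (log2 difference -0.20, exact permutation p = 0.0857, adjusted 0.129). Fundc2, an outer membrane protein gene, rose in itself, with 43.9 ± 1.44 CPM in knockdown and 35.7 ± 1.41 CPM in control libraries (log2 fold change 0.30, edgeR adjusted p = 0.000119).

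**Figure D4:**
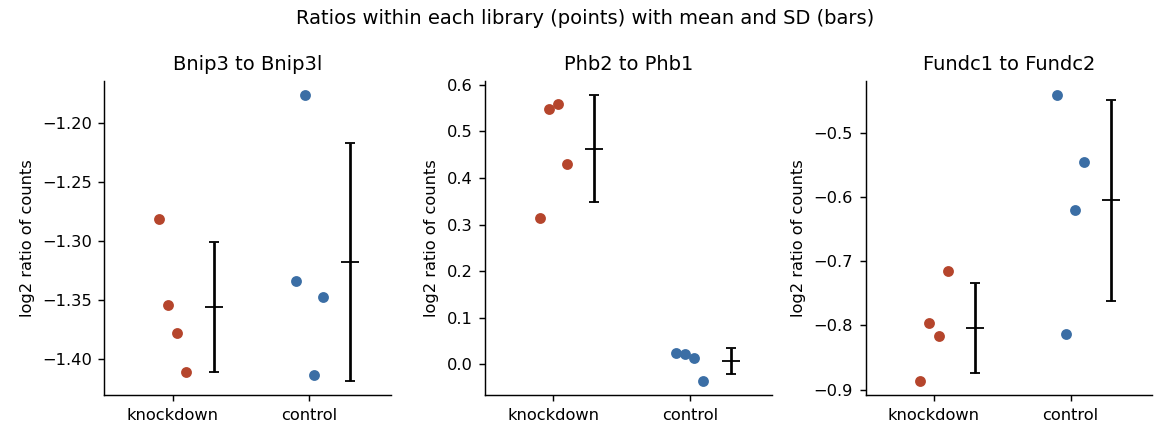
Log2 ratio of counts within each library (y axis, a separate range in each panel) for Bnip3 to Bnip3l, Phb2 to Phb1 and Fundc1 to Fundc2, with 4 knockdown libraries left of 4 control libraries and bars for mean and SD. The groups part in the Phb2 to Phb1 panel alone.

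Other genes of the pathway are given by list, each count to be read beside the 25.4% of all tested genes that rose and the 26.0% that fell. The lists were not tested against the 7 genes or against all genes. Of 22 further genes of the PINK1 route, 3 rose (13.6%) and 9 fell (40.9%), with a median log2 fold change of -0.09, and with total counts 7 rose and 4 fell. Besides Phb1, the outer membrane ubiquitin ligase gene Marchf5 fell (130.8 ± 1.32 CPM in knockdown, 162 ± 4.34 CPM in control libraries), as did Atad3a (-0.33), a gene for a membrane ATPase. The deubiquitinase gene Usp35 rose (0.64).

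Among the partners that carry cargo to the autophagosome, more genes rose than fell. Of 18 cargo adaptors and kinases, 10 rose (55.6%) and 3 fell (16.7%), with a median of 0.17, and with total counts 12 rose and 0 fell. Map1lc3b, whose LC3B product the receptors bind, rose to 180.2 ± 9.46 CPM in knockdown, against 128 ± 8.19 CPM in control libraries (0.50). Gabarap (0.31), Gabarapl2 (0.30) and the adaptor gene Calcoco1 (0.50) rose as well. Of 20 genes that regulate the receptors, 2 rose and 4 fell, and with total counts 7 rose and 3 fell. The survival gene Bcl2l1 (-0.43), the hypoxia-inducible factor gene Hif1a (-0.35) and Tmem11 (-0.39), whose product holds BNIP3 and BNIP3L, fell. Foxo3, a factor known to induce Bnip3 in muscle, rose to 167 ± 3.45 CPM in knockdown, against 126 ± 8.99 CPM in control libraries (0.40).

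Among the 9 pathway lists, the hypoxia-responsive genes had the largest share of falls. Of 26 such genes, 19 fell (73.1%) and 3 rose (11.5%), with a median of -0.29, and with total counts 16 fell and 5 rose. They included the glycolytic genes Hk2 (-0.95), Pgk1 (-0.61), Pfkfb3 (-0.45) and Eno1 (-0.44). The other 4 genes of the list did not pass the threshold. Bnip3, not counted in that list, did not pass either, with a log2 fold change of -0.02 in the same comparison. The difference between Bnip3 and the list was not tested.

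Genes of mitochondrial shape, import and upkeep changed in both directions. Of 25 fission and fusion genes tested, 4 rose and 2 fell, with a median of -0.01, and with total counts 9 rose and 1 fell. The fission factor gene Mff (0.19), Apool (0.35) and the protease gene Oma1 (0.23) rose, and Mtfr2 fell (-0.83). Of 13 import and channel genes of the outer membrane, 3 rose and 4 fell (6 and 1 with total counts). The pore gene Tomm40 (-0.42) and Vdac2 (-0.19) fell, though Vdac2 did not pass with total counts (-0.084), and Tomm22 (0.23) and Mtch1 (0.25) rose. Of 18 biogenesis genes, 2 rose and 6 fell (4 and 4 with total counts). Pprc1 (-0.55), Mgme1 (-0.57) and Nrf1 (-0.29, or -0.19 with total counts) fell, and the co-activator gene Ppargc1a fell to 0.232 ± 0.0588 CPM in knockdown, against 0.875 ± 0.21 CPM in control libraries. Of 18 chaperone and protease genes, 2 rose and 6 fell (5 and 3 with total counts), with Htra2 (-0.68), Pmpca (-0.31), Hspd1 (-0.30) and Hspa9 (-0.15) lower. With total counts Hspa9 did not pass (-0.048), and Hspd1 was at -0.20. The 13 mitochondrially encoded genes held 2 that rose, mt-Co1 (0.27) and mt-Nd6 (0.29), and 1 that fell, mt-Cytb (-0.24, or -0.14 with total counts). With total counts 6 rose and 1 fell. They summed to 23300 to 26300 CPM in knockdown and 21200 to 21900 CPM in control libraries, scaled to total counts. The largest part of that sum was mt-Co1, at 12211 ± 500 CPM in knockdown and 10129 ± 216 CPM in control libraries (TMM-scaled, SD). The sum therefore does not stand for every gene of the list. In knockdown libraries mt-Co2 was at 52.1 ± 55.6 CPM, and mt-Co3, mt-Atp6, mt-Atp8, mt-Nd3 and mt-Nd4l were lower still. A few genes, such as Oma1, Hspa9 and Vdac1, stand in 2 of these lists.

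**Figure D5:**
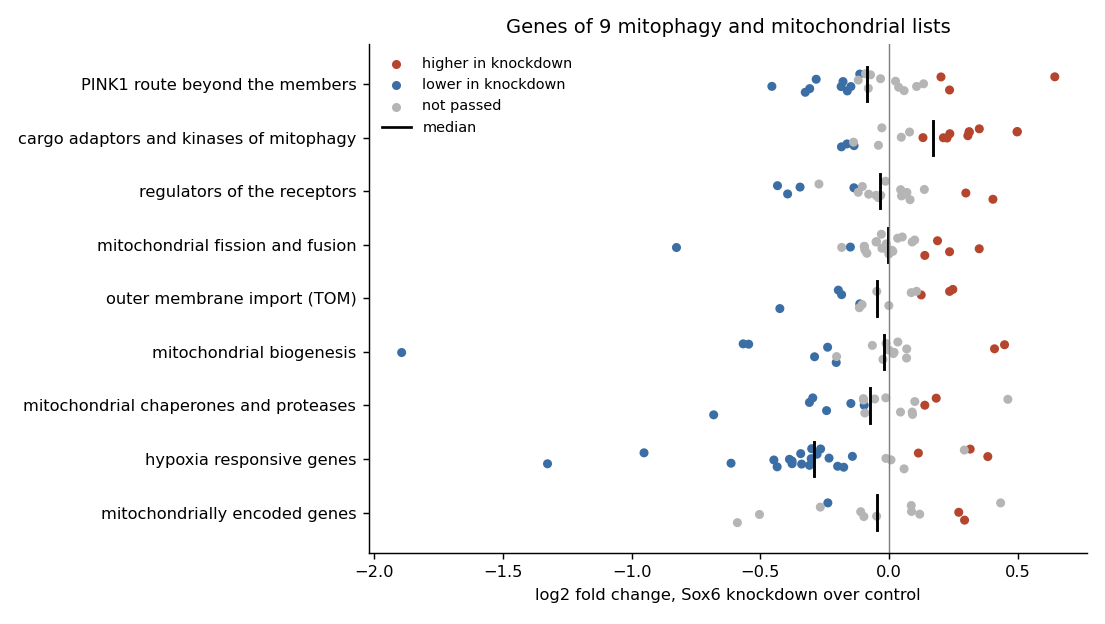
Log2 fold change of knockdown over control (x axis) of each tested gene in 9 lists of mitophagy and mitochondrial genes, coloured by call, with a black line at the list median. The cargo adaptors have the highest median, 0.17, and the hypoxia-responsive genes the lowest, -0.29.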

How the data were processed

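The deposited values were counts of reads per gene, whole numbers that the authors had not normalized, as the values themselves show. The submitters' processing notes name the build mm10 and DESeq2. The labels' protocols give total RNA taken with TRIzol and a NEBNext Ultra kit. Not given in the sources used here are the aligner, counter and strand setting. Between 72% and 74.2% of counts from 1 to 40 were even, so halved counts were tried. No pair of libraries within a group differed by as little as sampling noise (chi-square over its degrees of freedom from 6.15 to 17.6).

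GENCODE M21, of the same build, gave symbols for 30008 of 30660 identifiers, positions and merged exon lengths. Genes kept by filterByExpr (minimum count 10) were scaled by TMM and tested with the quasi-likelihood test of edgeR 4.0.16 in R 4.3.3, with no covariate. SE is the log2 fold change over the root of its F statistic, and intervals are 95%. CPM use TMM-scaled library sizes unless total counts are named. Calls are Benjamini-Hochberg adjusted p under 0.05 over all tested genes. The test was first tried on simulated data in which few genes changed, unlike these data. The simulated folds were all larger than those of Bcl2l13 and Pink1, so the simulation does not cover changes of that size.

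The 7 genes, the 9 pathway and 6 marker lists and the tests were chosen with earlier results of these data known. Besides the 7 genes, the rule names Sox6, Phb1, Fundc2, up to 4 genes with the smallest p-values past the threshold in each list, and the 3 genes most like each receptor or kinase gene that passed, at an average log2 CPM of at least 3. Alternatives were DESeq2 1.42.0 and its size factors, limma-voom (limma 3.58.1), scaling by total count or upper quartile, no filter, 1 CPM in at least 4 libraries, a replicate block, halved counts and leaving out each library. Intervals cover the spread between libraries. Promoters are RefSeq windows (GRCm38.p6), found for 6 of 7 genes. A gene of the PINK1 list is not reported here.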

Additional observations from a re-analysis of the deposited data

How the results depend on the processing

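With all libraries kept, the number of genes called stayed near 8311, from 7639 with the 1 CPM filter to 8967 with total counts, and from 7681 to 8032 without single libraries (3767 to 3928 higher, 3914 to 4104 lower). Pink1 and Bcl2l13 passed under all 9 alternatives that keep all libraries. Without single libraries Pink1 ran from 0.15 to 0.24 on the log2 scale (adjusted p from 0.0152 to 0.112, lost in 5 of 8) and Bcl2l13 from 0.13 to 0.19 (lost in 2 of 8). Total counts brought Bnip3l (0.13), Fundc1 (0.20), Fkbp8 (0.20) and Phb2 (0.10) past the threshold and turned Phb2 and Bnip3 (0.085) to plus, by the shift of all genes. Bnip3 did not pass. Upper quartile scaling turned Bnip3 (0.023) and Phb2 (0.036) to plus and brought Fkbp8 (0.14) past. The 1 CPM filter turned Phb2 to 0.0046, and the cause was not tested. Without single libraries Bnip3 ran from -0.070 to 0.042, Bnip3l from 0.0027 to 0.04, Fundc1 from 0.05 to 0.13, Phb2 from -0.018 to 0.0014 and Fkbp8 from 0.056 to 0.13, and the log2 ratios from -0.070 to 0.0089 (Bnip3 to Bnip3l), 0.42 to 0.51 (Phb2 to Phb1) and -0.27 to -0.14 (Fundc1 to Fundc2, where the unadjusted exact permutation p was 0.0286 without control replicate 2).

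Replicate numbers showed no sign of pairing the libraries. Deviations of same-numbered libraries had correlations from -0.0313 to 0.0568, against -0.067 to 0.0729 for differently numbered ones. With 4 libraries per group a weak pairing could go unseen, and the labels name none. With the replicate block 7985 genes were called, Pink1 was at 0.19 (adjusted p = 0.0406) and Bcl2l13 at 0.16 (adjusted p = 0.0289). Paired by number, the Phb2 to Phb1 log2 ratio stayed at 0.46 with an exact sign-flip p = 0.125, the smallest that 4 pairs can give. Of 306 list counts under the alternatives 39 moved by over 1.5 times, 13 of them among the 18 with total counts.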
